A study of Mus musculus with 12 samples.

Results

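The regions described here are those that chromatin immunoprecipitation with an antibody against KDM6A gave in 2 mouse pancreatic cancer cell lines, one labelled KDM6A-KO and one labelled KDM6A-WT, both labelled female. All regions of the 2 deposited KDM6A lists were taken, 2847 from the WT line and 5961 from the KO line, together 8808 of the 313566 regions in the 11 lists of the series. The series compared chromatin regulators and histone marks between lines with and without Kdm6a. The lines were grown in F12/DMEM with EGF and received no treatment. Every library of the series, those of WT genotype included, carries a cell type field that names a tumour null for K6A, so KO and WT follow the genotype field here. Each group held 1 library of 1 line, and the labels do not say whether lines of the 2 genotypes came from littermates or how Kdm6a was deleted.

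KDM6A, also called UTX, is an X-linked enzyme that removes methyl groups from H3K27me3, the mark laid down by Polycomb complexes at repressed genes. It also belongs to the complexes built around the methyltransferases MLL3 and MLL4 (KMT2D, the antibody of the MLL4 libraries), which place H3K4me1 at enhancers. Enhancers and promoters in use carry H3K27ac, and promoters carry H3K4me3. In pancreatic cancer KDM6A is known as a tumour suppressor, and its loss has been tied to a squamous form of the disease. In an experiment of this design, the list from the line without the protein serves as the measure of what the antibody gives where its target is missing.

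That list was the longer one. The KO line held 279350 reads in its KDM6A regions over 9.68 Mb and the WT line 147117 reads over 4.21 Mb. Totals of mapped reads are not given in the sources used here, so counts are compared within a list and not between lists. Neither list holds values that could check the deletion of Kdm6a itself. Since 1 library stood for each group, no difference between the lines has a replicate check and no test was made. Shares carry exact 95% Clopper-Pearson intervals in brackets, which cover counting error over regions. Regions are not replicates, since neighbours share a library and often a chromosome segment.

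Regions are called shared here if they had 1 bp or more in common with a region of the other list. By this rule 256 WT regions, or 8.99% [7.97 to 10.1], met 260 KO regions, or 4.36% [3.86 to 4.91]. With the KO list limited to its 2847 regions with the most reads, the WT share was 5.41% [4.61 to 6.30]. The 260 pairs left 2591 WT-only and 5701 KO-only regions. Within pairs the positions were close but seldom equal. The overlap had a median of 1000 bp, and overlap was 50% of the joint length at the median. The centres lay a median of 400 bp apart, and in 162 pairs (62.3%) they lay within 500 bp. Both borders were equal in 5 pairs. The shared WT region with the most reads, chromosome 15, 61276801 to 61282400 (mouse build mm9, counted from 1, as for all positions here), held 247 reads and met a KO region at 61275801 to 61279000 with 112 reads. Chromosome 15, 63206401 to 63211600, with 187 reads in WT, was split in KO into a region with 30 reads and a region with 51 reads. Over the 260 pairs, reads in WT and reads in KO had a Spearman rank correlation of 0.217, and reads per 200 bp one of 0.172. These are descriptions over regions of 2 libraries.

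Most regions without an overlap were not near misses. Of the WT-only regions, 1.43% [1.01 to 1.96] lay within 1 kb of a KO region and 10.1% [8.94 to 11.3] within 10 kb. The corresponding shares of the KO-only regions were 0.789% [0.576 to 1.05] and 5.54% [4.96 to 6.17]. Within 100 kb there was a KO region for 45.4% of the WT-only regions and a WT region for 28.5% of the KO-only regions.

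Regions of both lists were short and close to uniform in height. Height is given as reads per 200 bp, the step on which all region borders lay. WT-only regions had a median length of 1400 bp, with 10% at or under 800 bp and 10% at or over 2200 bp. KO-only regions had the same median, with 1000 and 2400 bp at those points. Shared regions had a median of 1400 bp on the WT side and 1600 bp on the KO side, and they were more often long. Regions of 3 kb or more made up 8.98% of the shared WT regions and 4.01% of the WT-only ones. In KO they made up 12.3% of the shared and 4.21% of the KO-only regions.

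**Figure D1:**
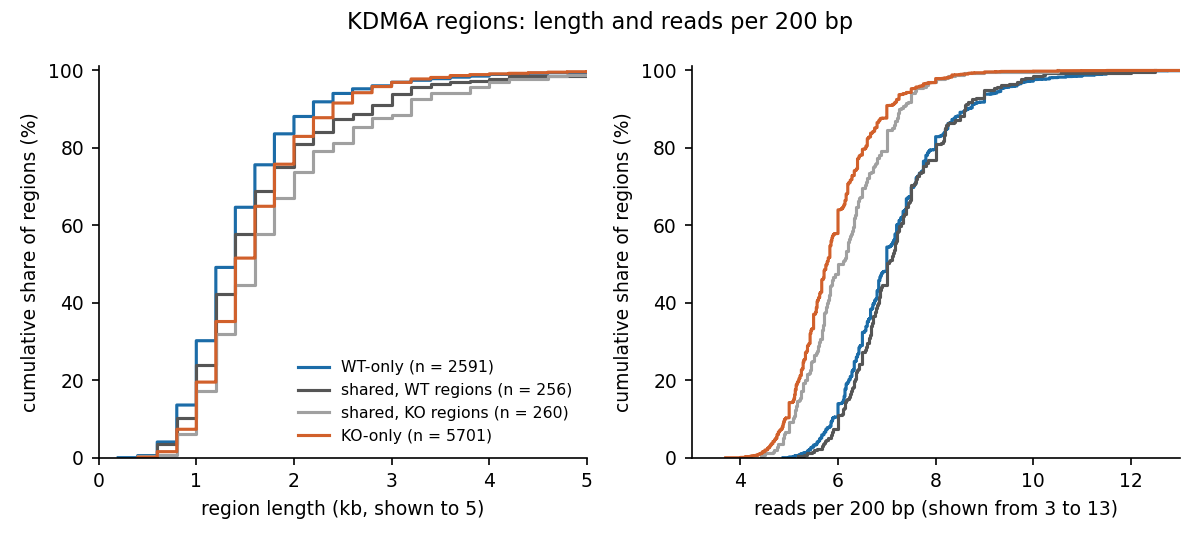
Cumulative share of KDM6A regions (%) by region length in kb (left) and by reads per 200 bp (right), for WT-only, shared (WT and KO regions drawn apart) and KO-only regions. The 4 length curves rise together around 1400 bp with the shared curves extending further right, while reads per 200 bp follow the library, with medians of 7.0 in both WT sets and of 5.78 and 6.06 in the KO sets.

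In the WT list the median was 7.0 reads per 200 bp for WT-only and for shared regions alike. In the KO list it was 5.78 for KO-only and 6.06 for shared regions. The point exceeded by 10% of the regions was 1.46 times the point undercut by 10% in the whole WT list, and 1.42 times in the whole KO list. The ratio was near this in the MLL4 lists, at 1.5 in WT and 1.62 in KO, and for H3K27me3, at 1.57. It was about 2 for H3K4me1 of WT, 3.50 for H3K27ac and higher still for H3K4me3. Few KDM6A regions thus rose far above the rest of their own list, and shared and unshared regions had much the same height. In reads per region the medians were 48 for shared and 44 for WT-only regions, and 47 for shared and 42 for KO-only regions.

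The chromatin at the regions was read from the H3K27ac, H3K4me3, H3K27me3 and H3K4me1 lists of the female WT line. H3K27ac, H3K4me3 and H3K27me3 of the KO line were not analysed here. Each KDM6A region was put in 1 of 8 classes by the marks that overlapped it. Shared regions were the most often marked as active promoters. H3K4me3 with H3K27ac and without H3K27me3 was found at 49.6% [43.3 to 55.9] of the shared WT regions, at 25.1% [23.4 to 26.8] of the WT-only regions and at 23.8% [22.7 to 24.9] of the KO-only regions. H3K27ac in any combination overlapped 66.4% [60.3 to 72.2], 37.6% [35.7 to 39.5] and 33.1% [31.9 to 34.3] of them. The intervals of the shared set lay apart from those of both other sets in each case. With the KO list limited to its 2847 regions with the most reads, H3K27ac was at 38.5% [36.6 to 40.3] of the WT-only and 39.4% [37.5 to 41.3] of the KO-only regions, so the order of these sets turned and their intervals overlapped.

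The enhancer classes, made with H3K4me1 of the WT line, set the 2 unshared sets apart from each other over all chromosomes. H3K27ac with H3K4me1 and without H3K4me3, the pattern of active enhancers, was present at 11.4% [10.2 to 12.7] of the WT-only and 7.49% [6.82 to 8.20] of the KO-only regions. It was present at 14.5% [10.4 to 19.4] of the shared regions. H3K4me1 alone, the pattern of enhancers not in use, was present at 20.6% [19.1 to 22.2] of the WT-only, 12.4% [11.6 to 13.3] of the KO-only and 12.5% [8.71 to 17.2] of the shared regions. KO-only regions were in turn the most often bare over all chromosomes. None of the 4 marks overlapped 48.1% [46.8 to 49.5] of them, against 35.7% [33.8 to 37.5] of the WT-only and 18.0% [13.5 to 23.2] of the shared regions. Adding the H3K4me1 lists of the other lines and both MLL4 lists still left 34.6% of the KO-only and 29.2% of the WT-only regions, and 11.3% of the shared ones, without any other listed region.

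**Figure D2:**
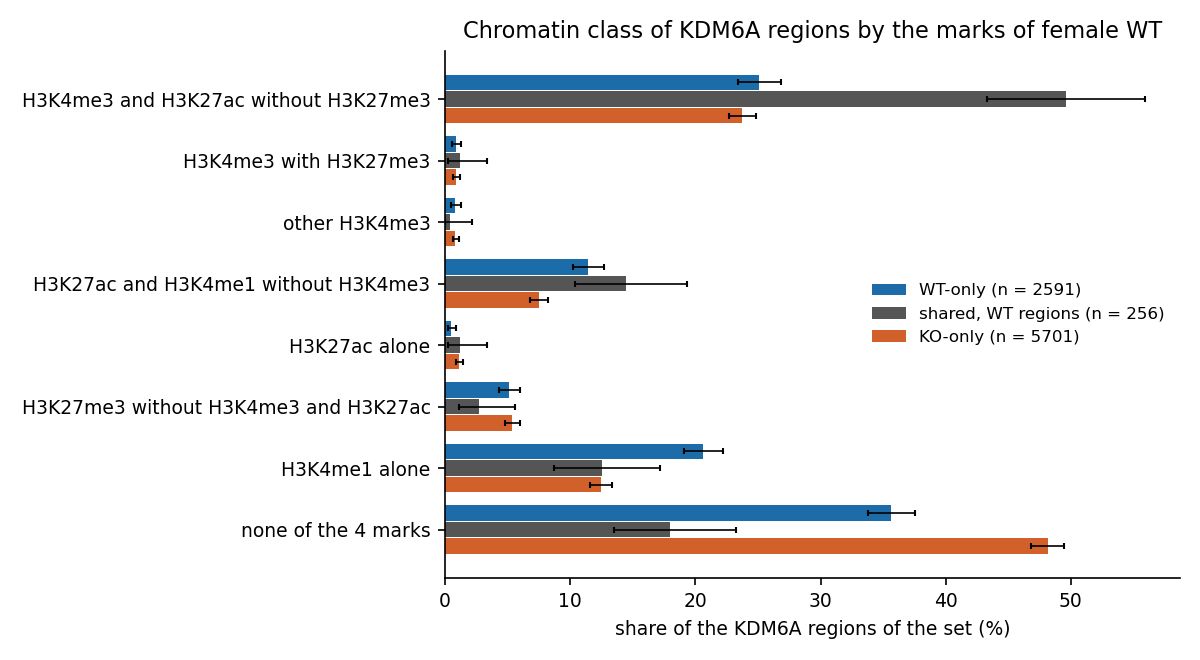
Share of KDM6A regions (%) in each of 8 chromatin classes made from the marks of the female WT line, for WT-only, shared (WT regions) and KO-only regions; bars start at 0 and error bars are exact 95% intervals over regions. Active promoters lead the shared set at 49.6%, and regions with none of the 4 marks lead the KO-only set at 48.1% and the WT-only set at 35.7%.

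Repressed chromatin held few KDM6A regions in any set. H3K27me3, the substrate of KDM6A, overlapped 6.41% [5.49 to 7.42] of the WT-only, 4.69% [2.45 to 8.04] of the shared and 6.35% [5.73 to 7.01] of the KO-only regions. The intervals of the 3 sets overlapped. H3K4me3 together with H3K27me3, known as the bivalent state, was found at 22 WT-only, 3 shared and 51 KO-only regions. H3K27ac also overlapped 15, 3 and 42 of these, so most were not free of the active mark. In this class the leading WT-only region was chromosome 19, 10309001 to 10314800, with 197 reads, under an H3K4me3 region of 6800 bp and an H3K27me3 region of 6200 bp. The leading KO-only region was chromosome 6, 29293801 to 29299600, with 176 reads, which also overlapped H3K4me1 in all 4 lines with that list. Both leaders overlapped H3K27ac, in regions of 7000 and 4200 bp.

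Leading regions of the other classes show what the sets contain. The active promoter class was led in WT-only by chromosome 19, 29323201 to 29329400, with 243 reads over 6200 bp, inside an H3K4me3 region of 7000 bp. In KO-only it was led by chromosome 6, 149132601 to 149138000, with 192 reads. Active enhancers were led in WT-only by chromosome 15, 8138601 to 8142800, with 146 reads. In the shared set they were led by chromosome 11, 70678601 to 70681800, with 100 reads in WT and 93 in KO. In KO-only the leader was chromosome 14, 43953401 to 43958200, with 191 reads. H3K27me3 without H3K4me3 and H3K27ac was led in WT-only by chromosome 19, 58727401 to 58730200, with 139 reads inside an H3K27me3 region of 38200 bp. H3K4me1 alone was led by the longest region of each list. In WT-only this was chromosome 15, 99808201 to 99819600, with 395 reads over 11400 bp. In KO-only it was chromosome 13, 12988201 to 13005600, with 720 reads over 17400 bp. Of the regions without any of the 4 marks, chromosome 7, 113390201 to 113394600, led in WT-only with 179 reads and lay in no other list of the series. In KO-only chromosome 14, 44048601 to 44056200, led with 325 reads and overlapped H3K4me1 and MLL4 of female KO.

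The share read at a single base, the centre of each region, does not depend on region length and gave the same order of the sets. H3K27ac covered 64.5% of the shared centres, 35.6% of the WT-only and 30.6% of the KO-only ones. At 20 kb toward higher coordinates it covered 17.2%, 11.9% and 10.9% of the positions. H3K4me3 covered 47.7%, 24.2% and 23.0% of the centres, and 8.98%, 6.72% and 6.0% at 20 kb. Among the marks, all of female WT, the 2 unshared sets differed most in H3K4me1. It covered 57.1% of the WT-only and 38.4% of the KO-only centres. That difference was also present in the surroundings, at 26.4% and 19.9% at 20 kb. It depended on the line that gave the mark. Counted over whole regions, H3K4me1 of female KO was at 36.0% [34.1 to 37.9] of the WT-only regions. For the KO-only regions it was 38.6% [37.3 to 39.8], so the order turned and the intervals overlapped. H3K27me3 had no peak at the centres, with 5.56% in WT-only and 5.30% in KO-only against 6.87% and 7.38% at 20 kb.

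**Figure D3:**
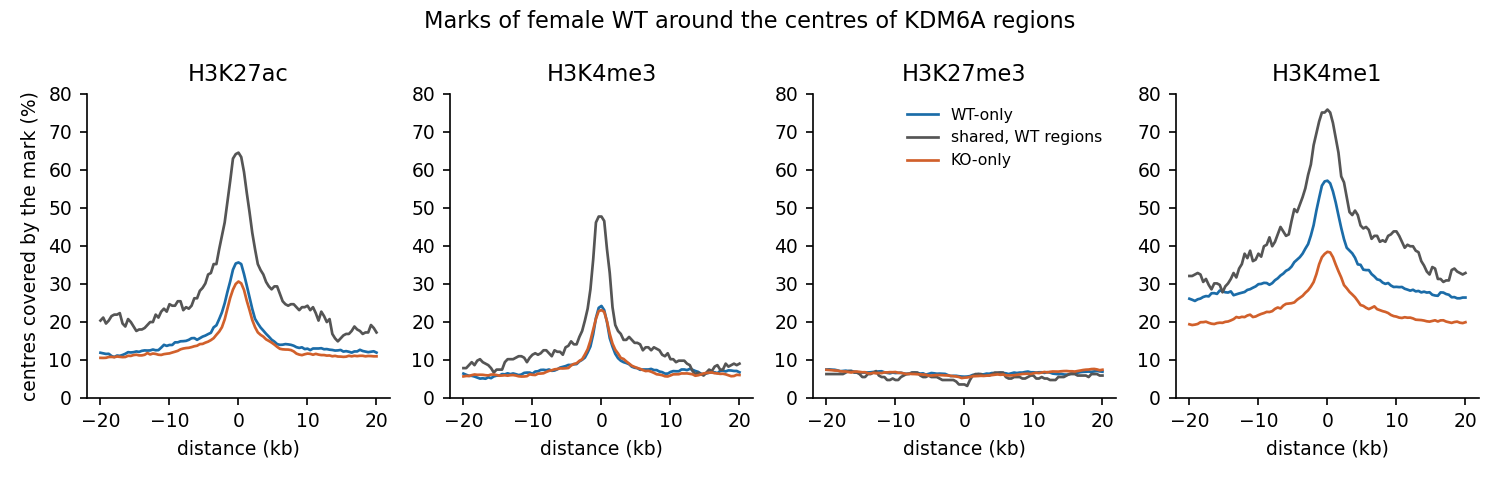
Share of KDM6A region centres (%) covered by H3K27ac, H3K4me3, H3K27me3 and H3K4me1 regions of the female WT line at distances of up to 20 kb on either side (x axis, kb), for WT-only, shared (WT regions) and KO-only regions. H3K27ac, H3K4me3 and H3K4me1 peak at the centre in all 3 sets and highest in the shared set, at 64.5%, 47.7% and 75.8%. H3K27me3 is lower at the centre than at 20 kb on either side in each set.

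Seen from the marks, the 2 KDM6A lists met promoters of different strength. The H3K4me3 regions of WT were ranked by their reads per 200 bp and cut into 5 classes of equal size. From the weakest to the strongest class, 3.18%, 4.19%, 3.72%, 2.96% and 2.31% [1.91 to 2.77] of them held a KDM6A region of WT. For the KDM6A list of KO the values were 4.55%, 4.59%, 5.16%, 6.78% and 9.41% [8.61 to 10.3]. Stronger H3K4me3 regions were also longer, with a median of 4200 bp in the strongest class and 1400 bp in the weakest. Ranked by length instead, the shortest and the longest class held KDM6A of WT in 1.41% and 5.61% [4.99 to 6.30] of cases, and KDM6A of KO in 2.12% and 12.4% [11.5 to 13.4]. Both lists thus rose with length, and the WT list did not rise with strength. MLL4 of KO was also at more of the strongest than of the weakest class, 23.7% [22.5 to 24.9] against 16.9% [15.9 to 18.0]. For MLL4 of WT the values were 3.74% [3.22 to 4.31] and 3.08% [2.62 to 3.61]. H3K4me3 regions with a KDM6A region of WT had a median of 19.1 reads per 200 bp, those with KO-only KDM6A had 50.3, and those with none had 25.8. On the 15 chromosomes other than 1, 6, 15, 17 and 19, the strongest class held KDM6A of WT in 1.58% [1.2 to 2.05] and of KO in 5.26% [4.54 to 6.04] of cases, and the weakest class in 2.81% and 2.65%.

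**Figure D4:**
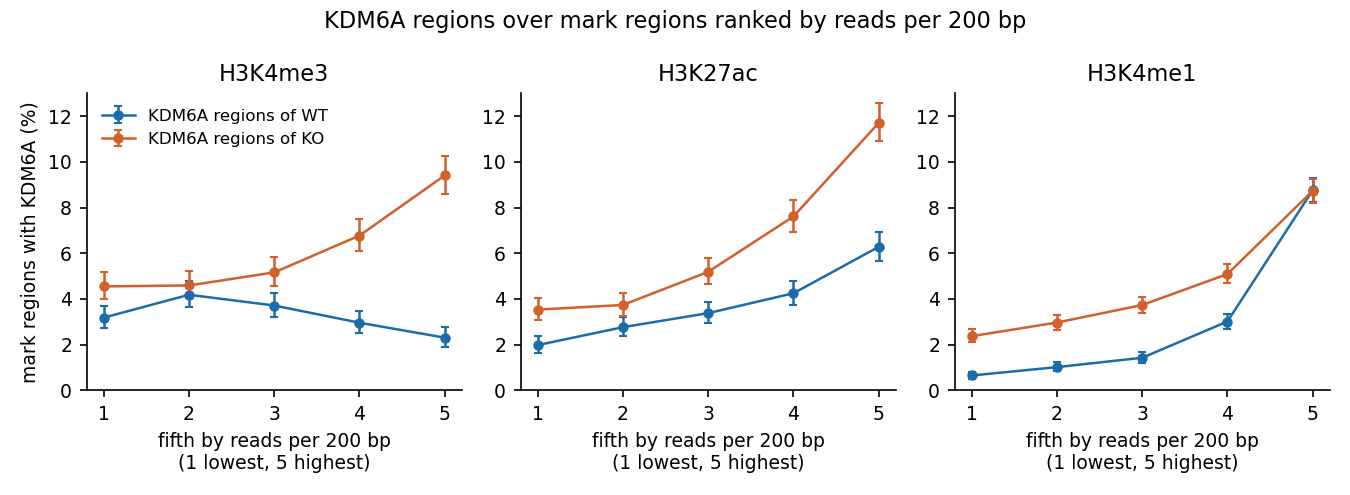
Share of H3K4me3, H3K27ac and H3K4me1 regions of the female WT line (%) that hold a KDM6A region of WT or of KO, with the mark regions in 5 classes of equal size by reads per 200 bp; error bars are exact 95% intervals over mark regions. All chromosomes are included. For H3K4me3 the KO list climbs to 9.41% in the strongest class while the WT list drops to 2.31%, and for H3K4me1 both lists end near 8.7%.

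For the other active marks both lists leaned to the stronger regions. Of the H3K27ac regions, 1.98% in the weakest and 6.28% [5.68 to 6.94] in the strongest class held KDM6A of WT, and 3.53% and 11.7% [10.9 to 12.6] held KDM6A of KO. The H3K4me1 regions gave the steepest course for the WT list, from 0.651% [0.511 to 0.818] to 8.77% [8.25 to 9.30]. The KO list went from 2.37% to 8.74% [8.22 to 9.28], and over all chromosomes reached the same share in the strongest class from a higher start. On the 15 chromosomes named above that class held KDM6A of WT in 6.93% [6.38 to 7.52] of cases. For KDM6A of KO it was 5.75% [5.25 to 6.28] there. Ranked by length, the H3K4me1 shares went from 0.544% to 9.53% in WT and from 1.88% to 10.7% in KO. For H3K27ac ranked by length they went from 0.871% to 9.61% in WT and from 2.08% to 14.2% in KO. H3K4me1 regions with KDM6A of WT had a median length of 7200 bp, against 4600 bp for those with KO-only KDM6A and 2600 bp for those with none.

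Within each list the height of a region went with its chromatin. Regions were put into 4 classes of equal size by reads per 200 bp. Higher regions were shorter, with a median length of 1600 bp in the lowest and 1000 bp in the highest class of WT. In KO these were 1800 and 1000 bp. From the lowest to the highest class, H3K27ac overlapped 27.1%, 36.1%, 44.7% and 52.7% [49.0 to 56.5] of the WT regions and 23.5%, 32.5%, 37.1% and 45.0% [42.4 to 47.5] of the KO regions. H3K4me1 of WT went from 46.6% to 74.5% in the WT list and from 36.3% to 54.2% in the KO list. On the 15 chromosomes named above the course for H3K27ac was as steep, from 34.5% to 64.8% in WT and from 28.7% to 52.0% in KO. Of the WT regions, those also in the KO list made up 7.87% [6 to 10.1] in the lowest and 9.28% [7.25 to 11.7] in the highest class, within each other's intervals. On those 15 chromosomes they made up 5.35% [3.38 to 7.99] and 10.3% [7.24 to 14.1]. In KO it was 3.35% [2.50 to 4.4] and 6.17% [5.01 to 7.52], and on those 15 chromosomes 4.26% [2.80 to 6.18] and 5.63% [3.83 to 7.94]. Length went with sharing in both lists. In WT 18.1% [11.8 to 25.9] of the 127 regions of 3 kb or more were shared and 6.86% [4.53 to 9.89] of the 379 regions under 1 kb. In KO it was 11.8% [8.19 to 16.2] of 272 and 3.67% [2.11 to 5.89] of 436. Longer regions also cover more sequence in which an overlap can fall.

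The share of regions found in the other list differed by class in both lists. Among WT regions it was 16.3% [13.8 to 19.1] for active promoters, 11.1% [7.97 to 15] for active enhancers, 5.65% [3.90 to 7.89] for H3K4me1 alone and 4.74% [3.49 to 6.28] for no mark. Among KO regions it was 8.70% [7.31 to 10.2], 7.78% [5.50 to 10.6], 4.58% [3.19 to 6.34] and 1.68% [1.24 to 2.23]. MLL4 of the same line followed a like order in these 4 classes. It was at 31.7%, 13.6%, 7.42% and 3.09% of the WT regions and 64.3%, 50.5%, 27.6% and 18.1% of the KO regions. The MLL4 list held 2130 regions in WT and 13152 in KO, so these levels are not compared between the lines. WT-only KDM6A regions met MLL4 of WT in 12.3% [11.0 to 13.6] and MLL4 of KO in 15.4% [14.0 to 16.8] of cases. For KO-only regions the values were 2.70% and 31.7%.

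H3K4me1 was listed in all 4 lines with that mark, so the regions can be followed across genotypes and sexes. The mark was present in all 4 lines at 60.2% [53.9 to 66.2] of the shared regions, at 31.9% [30.1 to 33.8] of the WT-only and at 31.4% [30.2 to 32.7] of the KO-only ones. It was present in both WT lines and neither KO line at 9.61% [8.50 to 10.8] of the WT-only regions, 5.47% [3.02 to 9.01] of the shared and 3.58% [3.11 to 4.09] of the KO-only ones. The reverse pattern, both KO lines and neither WT line, was found at 9 WT-only and 52 KO-only regions. All these values are over the KDM6A regions of a set and are not rates of absence. H3K4me1 of female WT was at 59.9% of the WT-only, 78.1% of the shared and 44.0% of the KO-only regions. For H3K4me1 of female KO the values were 36.0%, 64.8% and 38.6%. WT-only and KO-only regions had H3K4me1 of male WT at 57.4% and 46.1%, and of male KO at 46.0% and 42.2%. The share of the patterns across the 4 lines over all H3K4me1 regions was not counted here. KDM6A regions of the male lines were not analysed here.

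The absence of H3K4me1 regions from the KO line was set against the same count over the whole mark. Of all H3K4me1 regions of female WT, 51.1% had no counterpart in female KO. Of those with a WT-only KDM6A region, 520 of 1485 had none, which is 35% [32.6 to 37.5], and of those with a shared KDM6A region 34 of 201, or 16.9% [12 to 22.8]. For H3K4me1 regions with a KO-only KDM6A region the value was 17.8% [16.3 to 19.4]. All 3 lay under the share of the whole mark. In the male lines, where 42.0% of all H3K4me1 regions of WT had no counterpart in KO, the 3 values were 19.2%, 8.59% and 13.5%. The KDM6A regions used for them were those of the female lines.

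Split by acetylation, H3K4me1 regions with and without WT-only KDM6A came closer together in the female lines. Among H3K4me1 regions without H3K27ac, 82.1% [78.2 to 85.5] of those with WT-only KDM6A were missing from female KO and 81.3% [80.8 to 81.7] of those without it. Among regions with H3K27ac the values were 14.7% [12.6 to 17] and 17.8% [17.3 to 18.3]. In the male lines the regions without H3K27ac still differed, at 54.1% and 67.2%. For these the H3K4me1 regions of the male lines were split by H3K27ac and KDM6A regions of the female lines. For KO-only KDM6A in the female lines the difference remained within both classes, at 63.7% [59.4 to 67.8] against 81.6% without H3K27ac and at 4.69% [3.78 to 5.75] against 18.6% with it. Length moved with these values, since H3K4me1 regions with WT-only KDM6A had a median of 7000 bp and the others 2800 bp. In the longest of 3 length classes, which held 1128 of the 1485 regions with WT-only KDM6A, 26.1% [23.5 to 28.7] of these were missing from KO and 36.1% of the others. In the middle class the values were 59.8% [53.3 to 66.0] and 55.4%, and in the shortest 70.7% [61.5 to 78.8] and 62.3%. The order was thus the reverse in these 2 classes, but the value of the others lay inside the interval in both. In the male lines the regions with WT-only KDM6A had the lower value in all 3 length classes. From the longest to the shortest class it was 12.4% against 24.3%, 38.3% against 45.8% and 46.1% against 56.6%.

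The lists also differed in how their regions were spaced. In the KO list 30.6% [29.5 to 31.8] of the regions lay within 10 kb of another KDM6A region of the list, and in the WT list 14.8% [13.5 to 16.1]. The median distance to the nearest region was 29.6 kb in KO, the list with more regions, and 81.0 kb in WT. Counted within 50 kb the shares were 59.9% and 40.1%. Joining neighbours within 10 kb gave 199 groups of 2 or more regions in WT and 713 in KO. No WT group held more than 4 regions, and 40 KO groups held 5 or more. Crowding was higher on the chromosomes where each list had many more regions than the other. These chromosomes had been set by that surplus, and more regions on a chromosome lie closer by number alone. Spacing at matched numbers on each chromosome was not computed. In KO crowding was 43.6% [41.9 to 45.3] on chromosomes 1, 6 and 17 and 14.4% [12.9 to 15.9] on the 15 chromosomes other than 1, 6, 15, 17 and 19. In WT it was 26.2% [23.7 to 28.9] on chromosomes 15 and 19 and 7.42% [6.10 to 8.91] on those 15. On chromosomes 15 and 19 the KO list gave 12.2% [9.21 to 15.8], so the order of the lists turned there. On 1, 6 and 17 the WT list gave 6.89% [4.31 to 10.3].

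One stretch of the KO list stood apart from all other groups. It ran over 312.4 kb at chromosome 6, 148755801 to 149068200, and held 56 KDM6A regions with 3839 reads, where the next group held 14. Its ends follow from the 10 kb rule. Within 100 kb the KO list went on with 4 regions before the start, after a gap of 14.2 kb, and 11 after the end, after a gap of 12 kb. The regions had a median length of 1800 bp and a median gap of 2400 bp, and together covered 127.6 kb. Their heights ran from 4.78 to 7.75 reads per 200 bp with a median of 6.04, close to the 5.78 of all KO-only regions. None of the 4 marks of WT overlapped 42 of the 56 regions. MLL4 of the KO line had 81 regions over 184.8 kb in the stretch and met 46 of the 56. The WT line had 1 KDM6A region of 1.6 kb and 1 MLL4 region there. H3K4me1 of the KO line did not fill the stretch, with 7 regions over 21.0 kb, nor did H3K4me1 of WT, with 10 regions over 35.6 kb. The third longest KDM6A region of KO, chromosome 6, 149032001 to 149039600, with 234 reads, lies within it. The number of copies of this segment in the KO line was not measured, and its part in the result was not tested.

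**Figure D5:**
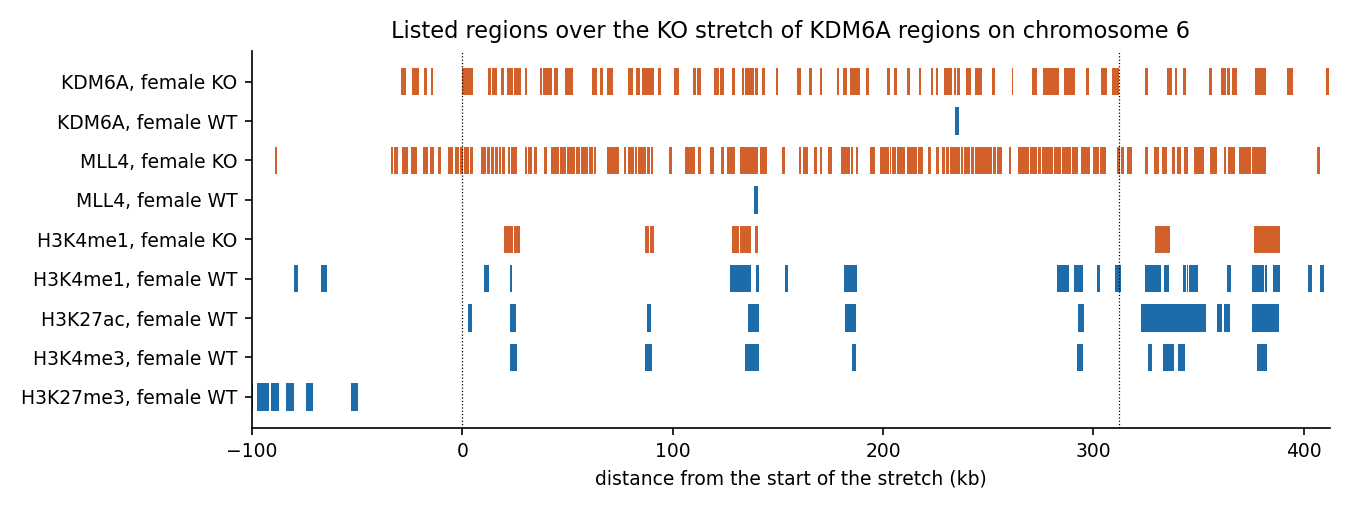
Regions listed in the female lines over the stretch of 56 KDM6A regions on chromosome 6 and 100 kb on either side; the x axis gives the distance from its start in kb, dotted lines its ends, blue bars regions of WT and orange bars regions of KO. KDM6A and MLL4 of KO run through the whole 312.4 kb and go on past both ends, WT shows 1 region of each, and the marks form separate blocks.

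The next groups of KO were 14 regions over 97.8 kb at chromosome 6, 119893001 to 119990800, and 10 regions over 52.8 kb at chromosome 1, 154707201 to 154760000. None of their regions was shared with WT, and MLL4 of KO met 13 of 14 and 6 of 10. In WT the leading groups were 4 regions at chromosome 19, 20319801 to 20337400, 4 regions at chromosome 19, 38281601 to 38308600, and 3 regions at chromosome 15, 61272801 to 61287000. The last of these held 389 reads, and all 3 of its regions overlapped H3K27ac of WT and H3K4me1 of each of the 4 lines. It contains the shared region at 61276801 named above. Another shared region on that chromosome, 61366601 to 61368600, held 92 reads in WT and 161 in KO and was also an active promoter by its marks.

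Sharing differed between groups of chromosomes, which had been set by the surplus of either list. Nearly equal numbers are shared on both sides, so the list with fewer regions has the higher share by its size. A longer list also offers more regions to meet, and no share at matched numbers was computed for each group. On chromosomes 1, 6 and 17, where the KO list was much the longer, 26.6% [21.7 to 31.9] of the 305 WT regions were shared and 2.51% [2.01 to 3.10] of the 3349 KO regions. On chromosomes 15 and 19, where the WT list was the longer, the shared regions made up 6.04% [4.72 to 7.59] of 1126 in WT and 16.9% [13.4 to 20.9] of 409 in KO. On the other 15 chromosomes the shares were 7.56% [6.23 to 9.06] of 1416 and 4.86% [4 to 5.84] of 2203. The highest share of a single chromosome in the WT list was 22 of 67 regions, on chromosome 17. The 15 others were not even either, with 311 KO and 79 WT regions on chromosome 14.

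Shared regions had the highest share with H3K27ac on each group of chromosomes, at different levels. On the 15 others, H3K27ac overlapped 72.9% [63.4 to 81.0] of the shared, 47.9% [45.2 to 50.6] of the WT-only and 39.0% [36.9 to 41.1] of the KO-only regions. On chromosomes 15 and 19 the values were 36.8% [25.4 to 49.3], 22.1% [19.6 to 24.7] and 27.9% [23.2 to 33.0], and the interval of the shared set overlapped that of the KO-only set. On chromosomes 1, 6 and 17 they were 82.7% [72.7 to 90.2], 50% [43.3 to 56.7] and 29.9% [28.3 to 31.5]. Regions with none of the 4 marks made up 47.3% [44.2 to 50.3] of the WT-only regions on 15 and 19 and 28.6% [26.1 to 31.1] on the 15 others. For KO-only regions they made up 51.9% [50.2 to 53.6] on 1, 6 and 17 and 42.4% [40.2 to 44.5] on the others. On 15 and 19 they made up 47.9% [42.5 to 53.4] of the KO-only and 42.6% [30.7 to 55.2] of the shared regions. The intervals of the 3 sets overlapped there. Active enhancers on 15 and 19 were 6.99% of the WT-only and 8.24% of the KO-only regions, the reverse of the order over all chromosomes. On the other groups of chromosomes WT-only had the higher share of that class. The 5 chromosomes were chosen with earlier results of these data known, and why their numbers of regions differ was not tested.

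The 5 highest regions of each set, by reads per 200 bp among those of 1 kb or more, each had at least 1 of the 4 marks. In WT-only the first was chromosome 14, 100045001 to 100046400, at 14.0 reads per 200 bp, against 7.0 at the list's median. It had the marks of an active enhancer in WT, overlapped MLL4 of WT, and had H3K4me1 in both WT lines and neither KO line. The second, chromosome 3, 69596601 to 69597800, at 12.3, carried H3K4me1 alone. The third, chromosome 15, 78362401 to 78363800, at 12.3, lay in an active promoter with an H3K4me3 region of 6200 bp and under an MLL4 region of WT of 6000 bp. The fourth and the fifth were on chromosome 19, at 10397601 to 10398600 with 12 reads per 200 bp, a bivalent position that also overlapped H3K27ac and H3K4me1 in all 4 lines, and at 32393801 to 32395200 with 11.7, an active promoter.

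In KO-only the first and the second lay in 1 neighbourhood of chromosome 1, at 158991601 to 158992800 with 10.5 and at 158940601 to 158942200 with 9.25 reads per 200 bp. Both were overlapped by MLL4 of KO and by H3K4me1 in all 4 lines. The third, chromosome X, 123309001 to 123310800, at 9.22, had H3K4me3 of WT and no H3K4me1 in any line. The shared set was led by chromosome 1, 90371801 to 90372800, at 10.2 in WT and 7.17 in KO, followed by chromosome 4, 47306401 to 47307400, with 50 reads in WT and 30 in KO. All 5 leading shared regions carried H3K27ac, and H3K4me1 in all 4 lines, and 4 of the 5 were active promoters by their marks.

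A few short regions of the KO list rose above all others and were singled out after their values were seen. Chromosome 9, 43854401 to 43855200, held 249 reads in 800 bp, or 62.3 reads per 200 bp, 10.8 times the median of the list. Chromosome 11, 5906001 to 5906800, held 31.8 and chromosome 1, 24619201 to 24620000, held 23.8 reads per 200 bp. The nearest WT region of KDM6A lay 441.2 kb, 602.6 kb and 6154.8 kb away. The first lies in an H3K27me3 region of 24800 bp of the WT line, the second in an active promoter, and the third had none of the 4 marks. The third overlapped an MLL4 region of KO that was also 800 bp long. The first and the second overlapped MLL4 of neither line. The highest value of the WT list was 17, from a region of 200 bp at chromosome 16, 24491201 to 24491400, with 17 reads.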

How the data were processed

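KDM6A chromatin immunoprecipitation of 2 lines, 1 library each, was analysed. The deposited lists hold a read count per region made by the authors, with Bowtie 1.1.2, SICER 1 and mm9 named, without roles, in the submitters' processing notes. No header names that column, and it was taken as reads because it holds whole numbers in the form SICER writes. Control and threshold are not given in the sources used here. Positions count from 1, in mm9. The reference tables describe another build, so no gene was assigned and no sequence is printed. Members, groups of chromosomes and lists were chosen with earlier results of these data known. Regions to name were drawn, per set, from the 5 of 1 kb or more with most reads per 200 bp and the one with most reads in each chromatin class. Per list they were drawn from the 3 longest and the 3 groups with most regions. Not all of these are named. Scripts ran under Python 3.11.15 (scipy 1.17.1, numpy 2.4.6, pandas 2.3.3). Overlaps were tested on simulated data, and 20 overlap counts equalled those of bedtools 2.31.1. Figures used matplotlib 3.10.9. Alternatives changed the overlap rule, the list threshold, the number of regions, the grouping distance and the chromosomes. The library labelled as input was not analysed here.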

Additional observations from a re-analysis of the deposited data

How the results depend on the processing

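No paired analysis was possible because each group held 1 library. Of 72 alternative values, 40 stayed within the interval of the reported value, among them all 14 from autosomes alone. The share of WT regions overlapped by KO (8.99%) was 7.02% with at least 50% of a region covered, 6.96% in the upper 50% of each list by reads, 5.41% with the KO list at the number of WT regions, 7.56% without chromosomes 1, 6, 15, 17 and 19, and 10.3% within 1 kb, a rule added after seeing the data. The share of KO regions overlapped by WT (4.36%) was 3.14% with 50% covered, 3.39% in the upper 50% by reads, 5.48% at equal numbers and 5.12% within 1 kb. Without those 5 chromosomes H3K27ac was at 72.9% of shared, 47.9% of WT-only and 39.0% of KO-only regions, and no mark at 10.3%, 28.6% and 42.4%. In the upper 50% by reads H3K27ac was at 43.8% of WT-only and 39.3% of KO-only regions, and no mark at 28.3% and 42.9%. With the KO list at the WT number KO-only regions gave 39.4% for H3K27ac, above the 38.5% of WT-only regions and so in the opposite order, and 43.2% for no mark. With 50% covered H3K27ac was at 31.1% of KO-only regions, and no mark at 37.7% of WT-only and 51.1% of KO-only regions. Regions within reach of another of their list were 40.1% in WT and 59.9% in KO at 50 kb, 11.8% and 24.8% in the upper 50% by reads, and 7.42% and 14.4% without the 5 chromosomes; KO gave 24.4% at the WT number. The ratio of reads per 200 bp of shared over unshared WT regions was 1 and became 1.05 without those chromosomes. The shared set kept the highest share with H3K27ac, and KO a higher share of crowded regions than WT, in each of these settings. Chromosomes 15 and 19 taken alone, where the WT list was the longer, gave the opposite order of crowding, with 26.2% in WT and 12.2% in KO. Depth was not known, and an unlisted position can still carry signal too weak to be called.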
